A study of Mus musculus with 6 samples.

Results

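Mitochondrial fatty acid oxidation genes were followed in 4T1 cells, a mouse mammary carcinoma line, after KIRA6 or vehicle. KIRA6 is an inhibitor of IRE1α, a stress sensor of the endoplasmic reticulum, and acts through the kinase domain to reduce RNA cleavage by the sensor. The 9 genes are Cpt1a, Cpt2, Slc25a20, Acadm, Acadl, Acadvl, Hadha, Hadhb and Pdk4, each taken as the row of the deposited table that carries its symbol, out of 56691 genes in all. There were 3 KIRA6 libraries (1 µmol/L for 4 h) and 3 vehicle libraries (the same 4 h in fresh medium), all from the unmodified line, made from polyadenylated RNA by a strand-specific method. The values are the authors' FPKM, fragments per kilobase of exon scaled to the library total. The labels name no separate cultures for the replicates, so the p-values below measure the spread between these samples only, which may be technical.

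Long-chain fatty acids enter mitochondria through the carnitine shuttle. CPT1 on the outer membrane joins the acyl group to carnitine, the carrier SLC25A20 moves the acylcarnitine across the inner membrane, and CPT2 on the inner membrane returns it to coenzyme A. Acyl-CoA dehydrogenases then introduce a double bond into the acyl chain, each for its own range of chain lengths, and hand their electrons to the electron transfer flavoprotein. For long chains the remaining steps of each cycle are done by the mitochondrial trifunctional protein, built from HADHA and HADHB. PDK4 phosphorylates and switches off pyruvate dehydrogenase, which spares glucose carbon when fat is burned. Many genes of the route are known targets of PPAR and ERR nuclear receptors in liver, heart and muscle.

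The library depth was recovered from the steps between low FPKM values and came to 18216000 to 21347000 fragments in the KIRA6 libraries and 16499000 to 18584000 in the vehicle libraries. The 8 members that were detected held between 132 and 4815 estimated fragments in a library. Over all genes, 2783 of the 11778 tested were called, 1843 higher and 940 lower with KIRA6, and the median log2 fold change was 0.16. Rescaling the libraries by median ratios set that median to −0.0084 and gave 1296 higher and 1438 lower calls. KIRA6 replicate 1 and Vehicle replicate 3 lay apart from the rest of their groups on the second principal component, at 44.5 and −55.9, against 2.70 and −8.01 in the other KIRA6 libraries and 13.0 and 3.81 in the other vehicle libraries. They also lay between the other libraries on the first component, which held 56% of the variance. KIRA6 replicate 1 was there at 11, against 42 and 48.6 in its group. Vehicle replicate 3 was at −10.2, against −47.7 and −43.8 in its own. All 5 markers of mammary carcinoma epithelium were expressed, with a summed 1494 to 1584 FPKM in KIRA6 and 1263 to 1380 FPKM in vehicle libraries. They did not move together: Krt14 averaged 162.1 FPKM with KIRA6 and 22.9 FPKM with vehicle, Epcam 65.1 FPKM with KIRA6 and 38.8 FPKM with vehicle, and Krt18 499.9 FPKM with KIRA6 and 597.4 FPKM with vehicle. The summed markers of adipocytes, which also burn and store fat, reached at most 0.02 FPKM in any library of either group, with Adipoq, Plin1 and Lep at 0 throughout. Leukocyte and endothelial markers each summed to at most 0.02 FPKM with KIRA6 and 0.06 FPKM with vehicle. Fibroblast markers summed to 1.81 to 3.70 FPKM with KIRA6 and 0.39 to 0.71 FPKM with vehicle, nearly all of it Pdgfra, while Pdgfrb and Dcn reached at most 0.02 FPKM in any library. Their part in the results below was not tested.

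The upstream sequences of 4 genes that rose and of the gene pair that shares one upstream region are shown first. Whether these sequences bear on the response to KIRA6 was not tested. They are the 250 bases before the annotated start in RefSeq (GRCm38.p6), read 5′ to 3′ on the strand of the gene, and all 9 members had such a window. In the first 4 the capitals mark the SP1 box GGGCGG and the nuclear receptor half-site AGGTCA, on either strand. Cpt1a lies at chr19:3323051-3323300 (plus strand), Cpt2 at chr4:107923590-107923839 (minus), Acadl at chr1:66863310-66863559 (minus) and Acadm at chr3:153944644-153944893 (minus).
Cpt1a: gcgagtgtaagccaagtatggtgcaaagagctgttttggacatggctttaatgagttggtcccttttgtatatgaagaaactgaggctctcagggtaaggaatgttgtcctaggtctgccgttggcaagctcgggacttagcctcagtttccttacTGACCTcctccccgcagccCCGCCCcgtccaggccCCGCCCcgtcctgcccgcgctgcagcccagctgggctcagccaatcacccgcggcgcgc
Cpt2: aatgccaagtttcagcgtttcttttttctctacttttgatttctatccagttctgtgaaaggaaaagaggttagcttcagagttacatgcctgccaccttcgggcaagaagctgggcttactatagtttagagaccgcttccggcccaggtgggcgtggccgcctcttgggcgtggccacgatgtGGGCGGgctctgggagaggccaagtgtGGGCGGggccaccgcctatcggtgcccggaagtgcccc
Acadl: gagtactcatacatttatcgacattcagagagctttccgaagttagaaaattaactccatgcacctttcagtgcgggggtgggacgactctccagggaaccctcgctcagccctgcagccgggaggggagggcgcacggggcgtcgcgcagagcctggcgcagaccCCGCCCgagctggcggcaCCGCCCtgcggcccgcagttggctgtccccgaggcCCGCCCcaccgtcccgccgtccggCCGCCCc
Acadm: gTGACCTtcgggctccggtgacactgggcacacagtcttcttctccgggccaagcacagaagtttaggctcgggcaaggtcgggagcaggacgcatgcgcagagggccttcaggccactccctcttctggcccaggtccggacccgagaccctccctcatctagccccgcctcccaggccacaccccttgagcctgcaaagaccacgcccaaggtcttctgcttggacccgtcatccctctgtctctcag
In the window of Hadhb, at chr5:30155003-30155252 (plus strand), the capitals mark the 228 bases that are at the same time upstream of Hadha on the other strand.
Hadhb: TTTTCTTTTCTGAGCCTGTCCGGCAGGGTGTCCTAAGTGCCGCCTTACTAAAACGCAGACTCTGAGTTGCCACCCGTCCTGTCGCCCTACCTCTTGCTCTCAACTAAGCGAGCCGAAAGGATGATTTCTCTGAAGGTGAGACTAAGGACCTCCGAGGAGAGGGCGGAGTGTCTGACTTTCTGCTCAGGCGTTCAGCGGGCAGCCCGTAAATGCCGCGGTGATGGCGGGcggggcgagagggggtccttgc

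Hadha and Hadhb are transcribed away from each other, with starts 273 bases apart in RefSeq and 86 bases apart in the deposited GRCm39 coordinates. An SP1 box was present in 6 of 9 member windows and in 32.7% of all 32851 windows. The box of Hadha lies in the region shared with Hadhb and is also counted there. G and C made up 49.6% (Acadvl) to 68.0% (Acadl) of the member windows, against a median of 52.4% over all windows. The shares were not matched for this content. The half-site AGGTCA was present in 3 of 9, those of Cpt1a, Acadm and Acadvl, and in 14.0% of all windows. The full PPAR element, 2 copies of AGGTCA in the same direction with any 1 base between them, was in no member window and in 0.0335% of all. The FOXO element GTAAACA was likewise in none of the 9 and in 3.17% of all. The longer estrogen-related receptor element TCAAGGTCA, which overlaps the half-site, was also in none and in 0.387% of all windows. Both strands were searched, and a match or its lack describes these letters only.

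Of the 9 genes, 4 rose with KIRA6, none fell, 4 were tested and not called, and Pdk4 was not detected. The genes that rose were Cpt1a, Cpt2, Acadl and Acadm, and those not called were Slc25a20, Acadvl, Hadha and Hadhb. The calls come from limma on log2(FPKM + 0.5) over all 11778 genes whose mean reached 0.5 FPKM, with Benjamini-Hochberg adjusted p below 0.05. Of all tested genes 23.6% were called, 15.6% higher and 7.98% lower. All 8 tested members had a positive log2 fold change, and their median was 0.87, against 0.16 over all tested genes. Every KIRA6 library lay above every vehicle library for 5 of the 8, which held for 27.7% of all tested genes. In bulk RNA, fewer cells of a type and less RNA per cell cannot be told apart.

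**Figure D1:**
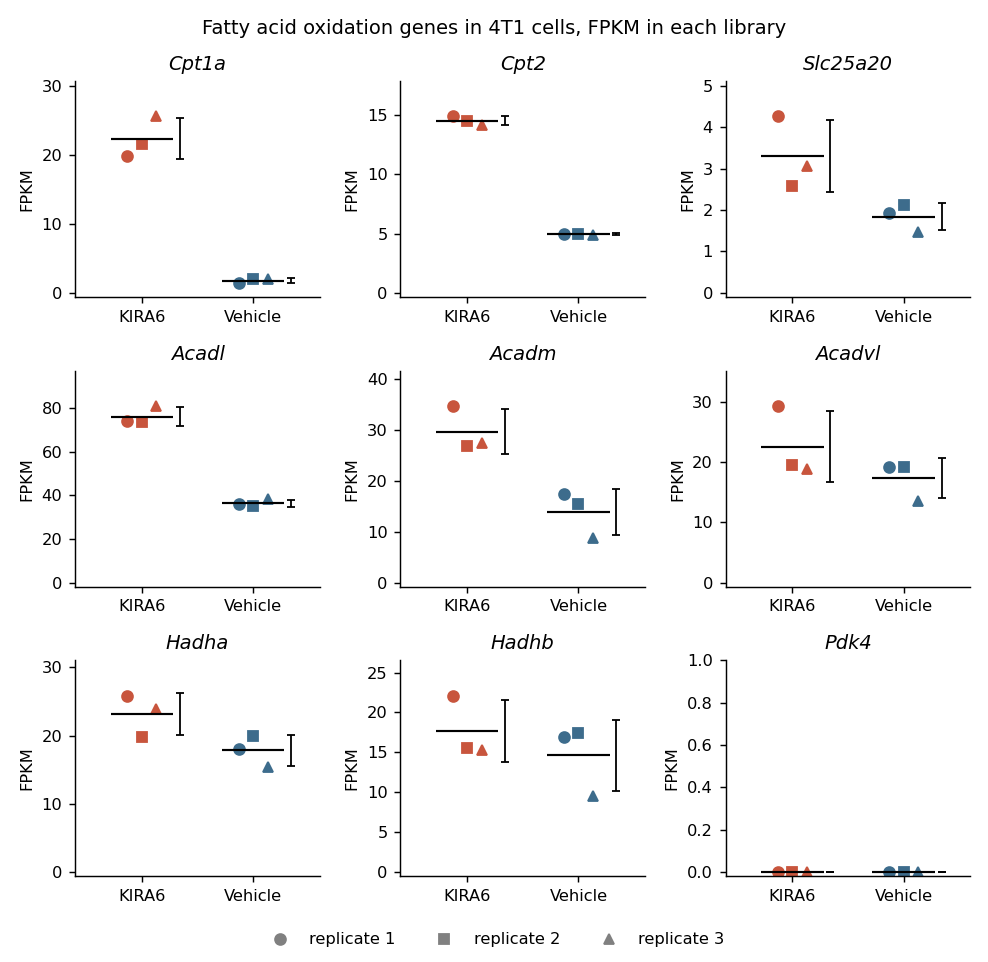
FPKM of each of the 9 genes in the KIRA6 (left) and vehicle (right) libraries, on linear axes; a symbol marks the replicate number, the line is the mean and the bar beside it ± 1 SD (n = 3). Cpt1a, Cpt2, Acadl, Acadm and Slc25a20 have no KIRA6 library at or below a vehicle library, and Pdk4 is at 0 in all 6.

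The carnitine shuttle held the largest change. Cpt1a (ENSMUSG00000024900, chromosome 19, 3372334 to 3435733 on GRCm39), the liver-type form of the entry enzyme, had 19.84, 21.56 and 25.56 FPKM in the KIRA6 libraries, against 1.39, 1.95 and 1.97 FPKM in the vehicle libraries. The lowest KIRA6 library thus stood far above the highest vehicle library. The means were 22.3 ± 2.93 FPKM with KIRA6 and 1.77 ± 0.329 FPKM with vehicle (SD, n = 3 each). The log2 fold change was 3.33 ± 0.17 (SE, limma adjusted p = 0.0004254), or 10.1-fold on the scale of FPKM + 0.5. In estimated fragments these were 3237, 3001 and 3877 with KIRA6 and 193, 246 and 280 with vehicle. Among the tested genes its mean level stood at percentile 81.3 with KIRA6 and at percentile 23.9 with vehicle. Only 3 of the 11778 genes had a larger log2 fold change.

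The other forms of CPT1 stayed low. Cpt1b, the muscle form, reached at most 0.01 FPKM in a KIRA6 library and 0.03 FPKM in a vehicle library. Cpt1c, a form known mainly from brain, had 0.15, 0.27 and 0.29 FPKM with KIRA6 and 0.12, 0.08 and 0.27 FPKM with vehicle. Cpt1a therefore made up 98.9% ± 0.233 of the summed CPT1 FPKM with KIRA6 and 91.4% ± 4.18 with vehicle (SD, n = 3 each). Neither Cpt1b nor Cpt1c passed the filter on low values, so neither was tested.

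Cpt2 (ENSMUSG00000028607, chromosome 4, 107761178 to 107780807), which reverses the reaction inside the mitochondrion, was the most even of the members. It had 14.87, 14.49 and 14.18 FPKM in the KIRA6 libraries and 4.96, 4.99 and 4.86 FPKM in the vehicle libraries. The spread within each group was small against the gap between them. Its log2 fold change was 1.47 ± 0.12 (SE, limma adjusted p = 0.0008878).

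Slc25a20 (ENSMUSG00000032602, chromosome 9, 108539287 to 108561840), the carnitine-acylcarnitine carrier, was the least abundant of the detected members with KIRA6. It had 4.26, 2.58 and 3.05 FPKM with KIRA6 and 1.93, 2.11 and 1.47 FPKM with vehicle. The groups did not overlap, but KIRA6 replicate 1 was well above the other KIRA6 libraries. The log2 fold change of 0.69 ± 0.21 (SE) missed the threshold (limma adjusted p = 0.05956), with a 95% interval of 0.18 to 1.19.

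The shuttle genes did not move in proportion. A ratio of FPKM within a library does not depend on the scaling between libraries, and 5 such ratios were tested. Cpt1a stood to Cpt2 as 1.33, 1.49 and 1.80 in the KIRA6 libraries, against 0.280, 0.391 and 0.405 in the vehicle libraries. Cpt1a was thus the more abundant of the pair with KIRA6 and the less abundant with vehicle. Slc25a20 stood to Cpt2 as 0.287, 0.178 and 0.215 with KIRA6 and 0.389, 0.423 and 0.303 with vehicle, lower in every KIRA6 library than in any vehicle library. Each of these differences reached an exact two-sided permutation p of 0.1, the smallest that 3 against 3 libraries can give, and 0.25 when adjusted over the 5 ratios.

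Among the acyl-CoA dehydrogenases, the long-chain and medium-chain genes about doubled and the very-long-chain gene was not called. Acadl (ENSMUSG00000026003, chromosome 1, 66869998 to 66902436), which encodes the long-chain enzyme, had 73.78, 73.32 and 80.84 FPKM with KIRA6 and 35.78, 34.89 and 38.11 FPKM with vehicle. It was the highest of the 9 genes in every library, and the groups stood well apart. Its log2 fold change was 1.06 ± 0.12 (SE, limma adjusted p = 0.002284).

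Acadm (ENSMUSG00000062908, chromosome 3, 153627994 to 153650269), the medium-chain enzyme gene, had 34.62, 26.74 and 27.39 FPKM with KIRA6 and 17.39, 15.43 and 8.83 FPKM with vehicle. KIRA6 replicate 1 was the highest of its group and Vehicle replicate 3 the lowest of its own. The log2 fold change was 1.11 ± 0.26 (SE, limma adjusted p = 0.02624). The call was lost on removal of Vehicle replicate 2 (adjusted p = 0.0639) or of KIRA6 replicate 1 (0.0655), 2 (0.0803) or 3 (0.0773), and without the filter on low values (0.0547). Over 17 alternatives the limma adjusted p ran from 0.00135 to 0.0803. Removal of both libraries that lay apart gave a log2 fold change of 0.71.

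Acadvl (ENSMUSG00000018574, chromosome 11, 69901009 to 69906237), the very-long-chain enzyme gene, had 29.28, 19.46 and 18.87 FPKM with KIRA6 and 19.14, 19.23 and 13.48 FPKM with vehicle. The groups overlapped: without KIRA6 replicate 1 and Vehicle replicate 3 the remaining 4 libraries lay between 18.87 and 19.46 FPKM. The log2 fold change was 0.36 ± 0.23 (SE, limma adjusted p = 0.2972), with a 95% interval of −0.18 to 0.91, and it was −0.0016 without both of those libraries. Dvl2 overlaps Acadvl by 2119 bases on the other strand and had 5.98 ± 2.39 FPKM with KIRA6 and 3.43 ± 1.82 FPKM with vehicle. The strand setting of the counting is not given in the sources used here, so the Acadvl level is uncertain.

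Within the libraries, the ratio of Acadvl to Acadl was 0.397, 0.265 and 0.233 with KIRA6 and 0.535, 0.551 and 0.354 with vehicle. KIRA6 replicate 1 lay above Vehicle replicate 3, so the groups overlapped (exact permutation p = 0.2, adjusted p = 0.333 over 5 ratios). The ratio of Acadm to Acadl was 0.469, 0.365 and 0.339 with KIRA6 and 0.486, 0.442 and 0.232 with vehicle (exact permutation p = 0.9, adjusted p = 0.9). These values overlapped widely, and the sign of the difference turned when KIRA6 replicate 1 or Vehicle replicate 3 was left out (−0.066 and −0.26 on the log2 scale, against 0.073 with all libraries).

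**Figure D2:**
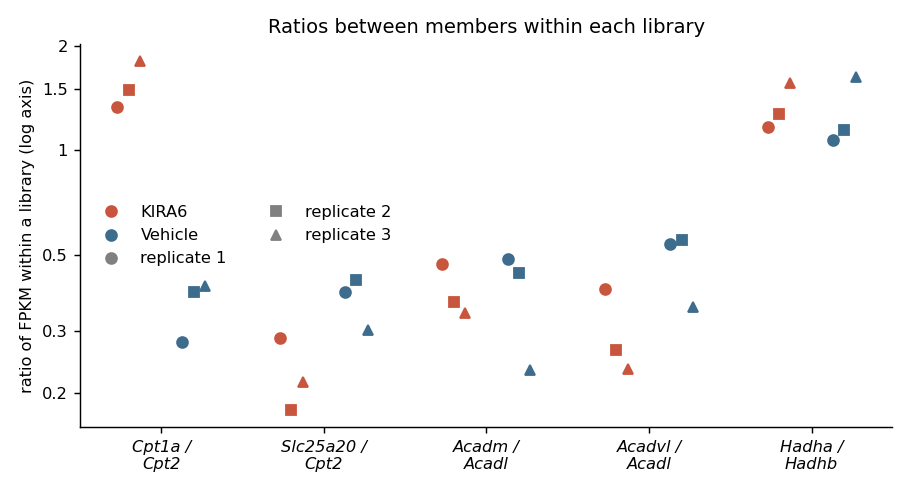
Ratio of FPKM between members within each library, on a log axis, KIRA6 left of vehicle for each ratio; symbols mark the replicate number (n = 3 each). Cpt1a/Cpt2 is higher and Slc25a20/Cpt2 lower in every KIRA6 library, while the other 3 ratios overlap between the groups.

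The trifunctional protein genes were not called. Hadha (ENSMUSG00000025745, chromosome 5, 30323302 to 30360160), the alpha subunit with the hydratase and dehydrogenase activities, had 25.84, 19.75 and 23.88 FPKM with KIRA6 and 18.10, 19.93 and 15.44 FPKM with vehicle. KIRA6 replicate 2 lay below Vehicle replicate 2, so the groups overlapped. The log2 fold change was 0.37 ± 0.16 (SE, limma adjusted p = 0.1494), with a 95% interval of −0.019 to 0.75, which leaves room for a rise of up to 1.69-fold.

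Hadhb (ENSMUSG00000059447, chromosome 5, 30360246 to 30389591), the beta subunit with the thiolase activity, had 22.11, 15.54 and 15.32 FPKM with KIRA6 and 16.90, 17.46 and 9.52 FPKM with vehicle. KIRA6 replicates 2 and 3 lay below Vehicle replicates 1 and 2. The log2 fold change was 0.29 ± 0.27 (SE, limma adjusted p = 0.4849), with a 95% interval of −0.36 to 0.94. It was −0.15 without KIRA6 replicate 1 and Vehicle replicate 3 together, and 0.018 without Vehicle replicate 3 alone.

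The pseudogene Hadhb-ps on chromosome 2 carries sequence close to Hadhb, so the reads may be split between them. It was listed at 30.93, 20.68 and 22.93 FPKM with KIRA6 and 22.85, 23.43 and 14.43 FPKM with vehicle. Its FPKM ratio to Hadhb was 1.41 ± 0.0834 with KIRA6 and 1.40 ± 0.0976 with vehicle (SD, n = 3 each). With the fragments of both summed, the ratio of the KIRA6 mean to the vehicle mean was 1.21, and it was 1.21 for Hadhb alone. The level of Hadhb is uncertain for this reason.

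The ratio of Hadha to Hadhb, the 2 subunit genes that share the upstream region printed above, was 1.17, 1.27 and 1.56 with KIRA6 and 1.07, 1.14 and 1.62 with vehicle. The groups overlapped (exact permutation p = 0.7, adjusted p = 0.875 over 5 ratios), with a mean of 1.33 ± 0.202 with KIRA6 and 1.28 ± 0.30 with vehicle. Replicate 3 had the highest ratio in both groups. Without Vehicle replicate 1 or KIRA6 replicate 3 the small difference turned to −0.041 and −0.044 on the log2 scale, against 0.075.

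**Figure D3:**
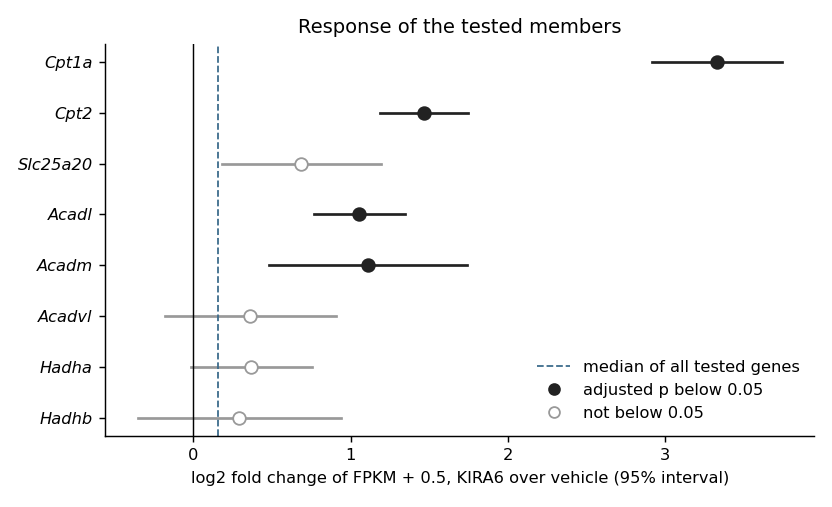
Log2 fold change of FPKM + 0.5, KIRA6 over vehicle, for the 8 tested genes with its 95% interval from limma (n = 3 each); filled points had an adjusted p below 0.05 and the dashed line is the median of all tested genes, 0.16. The 4 filled points lie between 1.06 and 3.33, and the intervals of Acadvl, Hadha and Hadhb include 0.

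The order of the levels per exonic length differed between the groups. With KIRA6, Acadl led with 76.0 ± 4.22 FPKM, followed by Acadm with 29.6 ± 4.37, Hadha with 23.2 ± 3.11, Acadvl with 22.5 ± 5.85 and Cpt1a with 22.3 ± 2.93 FPKM, and Hadhb, Cpt2 and Slc25a20 came last (SD, n = 3 each). Neighbours from Hadha through Acadvl and Cpt1a to Hadhb overlap between libraries, while Acadm lay above Hadha in every KIRA6 library, and Hadhb above Cpt2. With vehicle, Acadl led with 36.3 ± 1.66 FPKM, then came Hadha, Acadvl, Hadhb and Acadm between 17.8 and 13.9 FPKM, and Cpt2, Slc25a20 and Cpt1a were the lowest with 4.94, 1.84 and 1.77 FPKM. The vehicle values of Cpt1a and Slc25a20 overlapped, so their order there lies within the spread, and Cpt1a ranked 5 with KIRA6. Several deposited exonic lengths are far above those of the longest coding transcripts in GENCODE M21. They are 8730 against 4017 bases for Hadha, 6595 against 2048 for Hadhb and 7642 against 4317 for Cpt1a. For Slc25a20 they are 4844 against 1783 bases, and for Acadm 3913 against 2047. Per kilobase of those transcripts Hadhb led with vehicle and came next to Acadl with KIRA6, while Cpt1a ranked 5 with KIRA6 and 8 with vehicle on both scales. Slc25a20 (4.99) and Cpt2 (4.98) were level with vehicle per kilobase of those transcripts, unlike their FPKM.

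KIRA6 replicate 1 was the highest of the KIRA6 libraries for Cpt2, Slc25a20, Acadm, Acadvl, Hadha and Hadhb, and Vehicle replicate 3 was the lowest of the vehicle libraries for the same 6 genes. For Cpt1a and Acadl, replicate 3 was the highest library in both groups. Without both libraries the log2 fold changes were 3.48 for Cpt1a, 1.44 for Cpt2 and 1.11 for Acadl, close to those with all 6, and 0.39 for Slc25a20. The mitochondrially encoded genes took 2.66%, 3.25% and 2.83% of the fragments in the KIRA6 libraries and 2.03%, 1.75% and 1.95% in the vehicle libraries, higher in every KIRA6 library. The part of this share in the rise of the nuclear genes described here was not tested.

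Pdk4 (ENSMUSG00000019577, chromosome 6, 5483351 to 5496309) was at 0 in all 6 libraries. Since 1 fragment would show in the second decimal of its FPKM, no fragment was assigned to it. A count of 0 allows up to 3 fragments, which for Pdk4 is 0.0400 to 0.0469 FPKM in the KIRA6 libraries and 0.0460 to 0.0518 FPKM in the vehicle libraries, for counting error only. A rise below that level was not detectable at this depth. The filter on low values kept it out of the test, and no ratio to the other kinases could be tested.

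The other PDK genes were expressed. Pdk2, a widely expressed form, had 2.15, 4.55 and 4.89 FPKM with KIRA6 and 0.12, 0.13 and 0.70 FPKM with vehicle, with no overlap. Its log2 fold change was 2.42 ± 0.37 (SE, limma adjusted p = 0.005792). Pdk3 was the most abundant, with 21.78, 26.17 and 26.56 FPKM in KIRA6 libraries and 18.47, 18.27 and 28.60 FPKM in vehicle libraries (adjusted p = 0.5076 by limma). Pdk1, known as a hypoxia-induced form, had 3.94, 3.22 and 3.19 FPKM with KIRA6 and 4.30, 4.89 and 2.82 FPKM with vehicle (adjusted p = 0.6308 by limma). Pdk2 took 11.8% ± 3.51 of the summed PDK FPKM with KIRA6 and 1.09% ± 0.946 with vehicle, and Pdk3 took 77.3% ± 0.758 with KIRA6 and 82.7% ± 5.58 with vehicle. Of the 12 tested genes of pyruvate dehydrogenase, its kinases and phosphatases and the pyruvate carrier, 1 was called, Pdk2, and the median log2 fold change of the list was 0.093. Without Vehicle replicate 3, Pdhx and Pdp1 were called lower as well, against 1328 of all 11778 tested genes. With KIRA6 replicate 1 also removed, Pdk2 and Pdk3 were called higher and Pdhb, Pdhx, Pdk1 and Pdp1 lower. In that fit 4227 of all 11778 tested genes were called higher and 2383 lower.

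**Figure D4:**
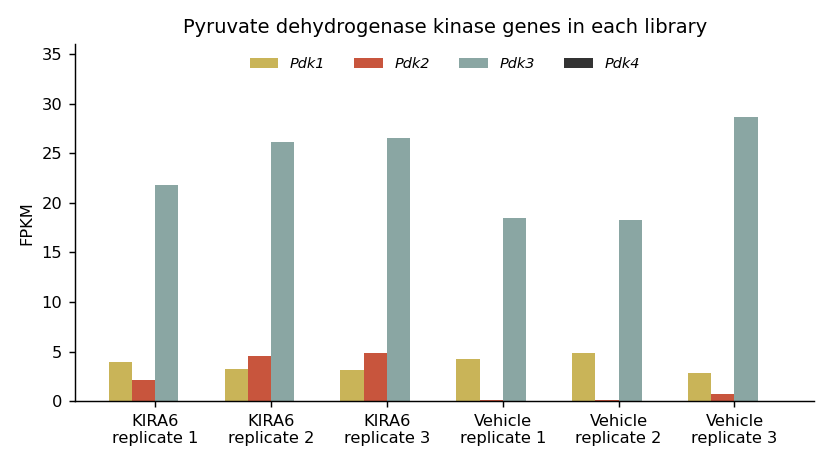
FPKM of the 4 pyruvate dehydrogenase kinase genes in each library, KIRA6 libraries left and vehicle libraries right, with bars from 0. Pdk3 is the tallest in every library, Pdk2 lies between 2.15 and 4.89 FPKM with KIRA6 and at 0.70 FPKM or less with vehicle, and Pdk4 has no bar because it is at 0.

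The steps around the 9 genes were read from 11 lists, chosen with earlier results of these data known. Over these lists, 94 different genes were tested, of which 28 rose (29.8%) and 1 fell (1.06%), against 15.6% and 7.98% of all tested genes. Their median log2 fold change was 0.36, against 0.16 over all tested genes. With 1 KIRA6 library left out, 23 rose without replicate 1, 12 without replicate 2 and 19 without replicate 3. Of all 11778 tested genes, 1640, 817 and 1038 rose in these fits. With 1 vehicle library left out, 17 rose without replicate 1, 14 without replicate 2 and 31 without replicate 3, and over these 6 fits 0 to 4 fell. Of all tested genes, 1101, 862 and 2064 rose without a vehicle library, and 394 to 1328 fell over the 6 fits. With Vehicle replicate 3 and KIRA6 replicate 1 both removed, 44 rose and 11 fell, against 4227 and 2383 of all 11778 tested genes. Quantile normalization gave 21 and 5, against 1132 and 1182 of all tested genes. Median-ratio scaling gave 20 and 3, against 1296 and 1438 of all tested genes. The counts of single lists in these fits stand against the same totals.

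The other enzymes of mitochondrial beta-oxidation and related acyl-CoA breakdown rose in 8 of 20 tested genes and fell in none, with a median of 0.52. The 4 of smallest p were Acot2, an acyl-CoA thioesterase (3.59 ± 0.0493 FPKM with KIRA6 and 1.33 ± 0.191 FPKM with vehicle), Ivd, the isovaleryl-CoA dehydrogenase of leucine breakdown (8.52 ± 0.925 FPKM with KIRA6 and 4.48 ± 0.250 FPKM with vehicle), the thioesterase Acot13 and Mmut, the methylmalonyl-CoA mutase. Acads, the short-chain dehydrogenase gene, rose as well, to 26.7 ± 1.38 FPKM with KIRA6, against 15.5 ± 2.51 FPKM with vehicle (limma adjusted p = 0.01448). The enzymes of the later steps for shorter chains were not called: Hadh had a log2 fold change of 0.37, Acaa2 of 0.46 and Echs1 of 0.34, with limma adjusted p of 0.2429, 0.1788 and 0.2312. Hadh and Acaa2 still had every KIRA6 library above every vehicle library. The count of 8 was 3 on removal of replicate 2 of either group, and 5 on removal of KIRA6 replicate 3 or with quantile normalization. With Vehicle replicate 3 and KIRA6 replicate 1 both removed, 8 rose and 2 fell. The call for Acot13 was lost without KIRA6 replicate 2 (adjusted p = 0.0586, limma). That for Acads was lost without replicate 2 of either group, with an adjusted p of up to 0.0724. That for Mmut was lost in both of these cases and without Vehicle replicate 1, with an adjusted p of up to 0.0602.

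The electron transfer flavoprotein takes the electrons of all these dehydrogenases. Etfdh, the oxidoreductase that passes them to ubiquinone, had 6.37, 5.95 and 6.41 FPKM with KIRA6 and 2.18, 2.27 and 2.15 FPKM with vehicle. Like Cpt2 it was even within both groups, and its log2 fold change was 1.32 ± 0.13 (SE, limma adjusted p = 0.001393). Etfrf1, a regulator of the flavoprotein, was also called, with a log2 fold change of 0.71 and an adjusted p of 0.04649 by limma. That call was lost with a pseudocount of 0.1, without the filter on low values, with median-ratio or quantile scaling, and on removal of any 1 library except Vehicle replicate 3, with an adjusted p of up to 0.3205. The flavoprotein subunits Etfa (51.9 ± 3.20 FPKM with KIRA6 and 35.9 ± 6.83 FPKM with vehicle) and Etfb (18.9 ± 6.31 FPKM with KIRA6 and 14.2 ± 2.56 FPKM with vehicle) were not called.

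Of the 3 other tested carnitine genes only Crat was called. Crat, the carnitine acetyltransferase, had 7.23, 9.23 and 9.50 FPKM with KIRA6 and 2.54, 2.61 and 3.38 FPKM with vehicle, a log2 fold change of 1.45 ± 0.18 (SE, limma adjusted p = 0.00266). The carnitine importer Slc22a5 averaged 3.50 FPKM with KIRA6 and 2.78 FPKM with vehicle (adjusted p = 0.3753 by limma).

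Peroxisomes shorten very long chains and pass the products to mitochondria as carnitine esters. Of 13 tested genes of this route 9 rose and none fell, with a median log2 fold change of 0.63, and 12 of 13 had groups that did not overlap, against 41.8% of all tested genes. Crot, the octanoyltransferase that makes the carnitine esters, had 8.95, 7.86 and 7.59 FPKM with KIRA6 and 3.40, 2.78 and 1.96 FPKM with vehicle (log2 fold change 1.45 ± 0.20, SE, limma adjusted p = 0.004014). Acox3, an acyl-CoA oxidase, rose to 1.39 ± 0.251 FPKM with KIRA6, against 0.343 ± 0.0702 FPKM with vehicle. Decr2, a dienoyl-CoA reductase, rose to 7.93 ± 1.57 FPKM with KIRA6, against 3.26 ± 0.740 FPKM with vehicle. The count of 9 was 5 with median-ratio scaling or on removal of replicate 1 of either group or Vehicle replicate 2, and 3 on removal of KIRA6 replicate 2. Quantile normalization gave 7 higher and 1 lower.

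Of 10 tested uptake and activation genes 2 rose and 1 fell. With Vehicle replicate 3 and KIRA6 replicate 1 both removed, 5 rose and 3 fell, and the replicate block gave 4 and 1. Acsf3, a mitochondrial malonyl-CoA synthetase, rose to 4.16 ± 0.389 FPKM with KIRA6, against 2.01 ± 0.246 FPKM with vehicle. Of the long-chain acyl-CoA synthetases, Acsl3 rose (log2 fold change 0.64, limma adjusted p = 0.02957) and Acsl4 fell by 0.59 on the log2 scale (limma adjusted p = 0.02922). The call for Acsl3 ended with median-ratio scaling and rescaling to TPM, and both calls ended without the filter on low values. Both calls were lost on removal of Vehicle replicate 1 or of replicate 2 of either group, that for Acsl3 also without KIRA6 replicate 3 and that for Acsl4 also without KIRA6 replicate 1. The highest adjusted p was 0.124 for Acsl3 and 0.114 for Acsl4.

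Lipid droplet and lipolysis genes rose in 3 of 8 tested genes, and none was called lower. Plin3, a droplet coat protein, had 51.67, 35.81 and 38.03 FPKM with KIRA6 and 12.99, 14.25 and 9.0 FPKM with vehicle (log2 fold change 1.76 ± 0.22, SE, limma adjusted p = 0.003093). Lipa, the lysosomal acid lipase, had 5.08, 4.07 and 5.66 FPKM with KIRA6 and 1.65, 1.51 and 1.6 FPKM with vehicle (log2 fold change 1.37 ± 0.16, SE, limma adjusted p = 0.002461). The hormone-sensitive lipase gene Lipe was close to the threshold (adjusted p = 0.04849 by limma), and its call ended when any 1 library was left out, without the filter, and under each of the 3 other scalings (median-ratio, TPM and quantile). Hilpda, a hypoxia-induced droplet protein, had 8.71, 6.02 and 5.34 FPKM with KIRA6 and 14.19, 13.35 and 8.34 FPKM with vehicle (log2 fold change −0.79 ± 0.26, SE, limma adjusted p = 0.07247). It was called lower with median-ratio or TPM scaling, with the replicate block, and without Vehicle replicate 3, KIRA6 replicate 1 or both. Quantile normalization called Dgat2, a triglyceride synthesis gene, lower instead.

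Among the nuclear receptors known to drive these genes, the PPAR genes and Esrra were low or not called. Ppara, the receptor best known for fat burning in liver, reached at most 0.02 FPKM in a KIRA6 library and was at 0 in all vehicle libraries. Pparg reached 0.07 FPKM with KIRA6 and 0.04 FPKM with vehicle, and the coactivator Ppargc1a 0.07 FPKM with KIRA6 and 0.02 FPKM with vehicle. Ppard, the widely expressed form, had 0.75, 4.47 and 3.96 FPKM with KIRA6 and 1.92, 2.11 and 14.29 FPKM with vehicle (limma adjusted p = 0.6618), with Vehicle replicate 3 far above the rest. Esrra, the gene of ERRα, had 2.24, 3.57 and 3.25 FPKM with KIRA6 and 3.66, 4.82 and 10.4 FPKM with vehicle. The groups did not overlap, and the log2 fold change of −0.84 ± 0.37 (SE) missed the threshold (limma adjusted p = 0.1472), but Esrra was called lower with quantile normalization and with the replicate block. Of 10 tested receptors, coactivators and corepressors 1 rose, Lpin1, a phosphatidate phosphatase that also acts with PGC-1α in mouse liver (1.95 ± 0.607 FPKM with KIRA6 and 0.583 ± 0.217 FPKM with vehicle). That call was lost on removal of Vehicle replicate 1 or 2 or of KIRA6 replicate 2 or 3, with an adjusted p of up to 0.0759. Other settings called more genes of this list higher: 2 with the replicate block (Lpin1 and Rxra) and 3 without Vehicle replicate 3 (also Rxrb). With KIRA6 replicate 1 removed as well, 7 were called higher, against 4227 of all 11778 tested genes. Ppard was among these 7, while its log2 fold change with all 6 libraries was −0.58. Of 12 other PPAR target genes 10 fell below the filter, among them Angptl4 with at most 0.14 FPKM with KIRA6 and 0.03 FPKM with vehicle, and neither of the 2 tested, Plin2 and Ucp2, was called (limma adjusted p = 0.731 and 0.1523, none at an unadjusted p below 0.05, none by limma-voom). Ucp2 was called higher with the replicate block, without Vehicle replicate 3, and with KIRA6 replicate 1 removed as well.

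Malonyl-CoA blocks CPT1, and of the genes listed for its control none was called with all 6 libraries modelled by group alone. Acsf3, the malonyl-CoA synthetase gene that rose, belongs to the uptake and activation list. Acaca, the acetyl-CoA carboxylase of fat synthesis, had 6.44, 6.46 and 10.05 FPKM with KIRA6 and 7.99, 9.14 and 13.85 FPKM with vehicle (limma adjusted p = 0.3127). Mlycd, which removes malonyl-CoA, had 0.60, 1.44 and 1.65 FPKM with KIRA6 and 0.13, 0.25 and 0.76 FPKM with vehicle (limma adjusted p = 0.08976). Acacb, the mitochondrial carboxylase, had 0.47 to 0.60 FPKM with KIRA6 and 0.22 to 0.32 FPKM with vehicle and was below the filter. Of the 8 tested genes of this list, including AMPK subunits, limma by group alone and limma-voom called none, and 1 had an unadjusted p below 0.05 by limma. Mlycd was called higher with the replicate block and without Vehicle replicate 3, KIRA6 replicate 1 or both, and Fasn, the fatty acid synthase gene, joined it in the last case.

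**Figure D5:**
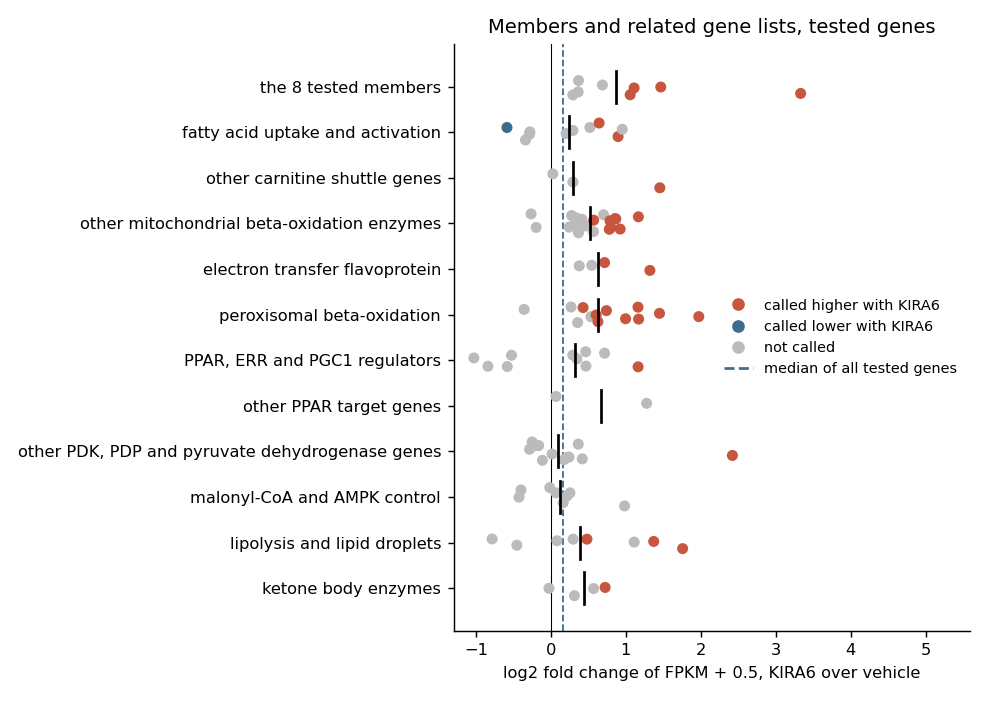
Log2 fold change of FPKM + 0.5, KIRA6 over vehicle, of the 8 tested members (top row) and of the tested genes of the 11 related lists, 1 point per gene; black bars are list medians and the dashed line is the median of all tested genes, 0.16. The list of peroxisomal genes holds 9 called increases, that of other mitochondrial beta-oxidation and related acyl-CoA breakdown 8, and the malonyl-CoA list none.

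The genes whose pattern over the 6 libraries was closest to that of Cpt1a, by Euclidean distance of centred log2 values among 9726 genes, were Artn, Afap1l2, Mmp11, Tcea3 and Mxd4, at distances of 0.607 to 0.777 and with log2 fold changes of 2.82 to 3.05. Those closest to Slc25a20 were Gucd1, Evc, Wdsub1, Ddx59 and Spin2c, at distances of 0.113 to 0.185 and with log2 fold changes of 0.62 to 0.75. None of these 10 genes is in the 11 lists, and with 6 libraries in 2 groups many genes share such patterns. Pdk4, at 0 throughout, has no pattern to compare.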

How the data were processed

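RNA was measured in 3 KIRA6 and 3 vehicle libraries of 4T1 cells. The authors deposited FPKM per gene and library, with 2 decimals, beside exonic length and GRCm39 coordinates. Per the submitters' processing notes, cutadapt 1.9.1, HISAT2 2.2.1, HTSeq 0.6.1 and DESeq2 1.34.0 were used, while the sources used here give no counting settings. The members, gene lists, tests and alternatives were chosen with earlier results of these data known.

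Depth was recovered by finding the total at which FPKM times length gives whole fragments, and 100.0% of 1612 to 1898 checked values per library came out within 0.1 fragment. Log2(FPKM + 0.5) was modelled by group alone with limma 3.58.1 under R 4.3.3 (intensity trend, robust, two-sided) for genes whose mean reached 0.5 FPKM, and Benjamini-Hochberg adjustment ran over all 11778. A fold change on this scale understates that of low genes. The step was tested on simulated data with independent noise for each gene and library. That check does not cover spread that the libraries share across genes. Ratios between members were tested by exact permutation of the libraries. The smallest p these permutations can give is 0.1.

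The named genes are the 9 members, 19 genes named whatever their values, up to 4 called genes of smallest adjusted p per list, and the 5 genes closest in pattern to Cpt1a and Slc25a20. Others named (Etfa, Etfb, Slc22a5, Plin2, Ucp2, Esrra, Rxra, Rxrb, Fasn, Pdhx, Pdhb, Pdp1, Hilpda, Dgat2, Krt14, Epcam, Krt18 and the read-sharing genes) were chosen after their values were seen. Some genes that the rule takes are not reported here. Alternatives changed the pseudocount, filter, scaling, empirical Bayes settings and test (limma-voom on estimated fragments), added a replicate block, and left out libraries. The transcript lengths were added after seeing the data. Promoter windows are from RefSeq (GRCm38.p6), and no coordinate was moved between builds.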

Additional observations from a re-analysis of the deposited data

How the results depend on the processing

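Cpt1a, Cpt2 and Acadl stayed called in all 17 alternatives, with log2 fold changes of 3.07 to 3.67, 1.29 to 1.55 and 0.87 to 1.15. Acadm stayed called in 12 of 17. Among the 17 alternatives, members called higher numbered 3 without a filter on low values, 5 with the replicate block (which added Slc25a20, adjusted p = 0.0245) and 3 to 4 with 1 library left out, and none was called lower. Slc25a20 was called in 1 of the 17. Its log2 fold change was 0.53 with median-ratio scaling (limma adjusted p = 0.1297) and 0.36 with quantile normalization (limma adjusted p = 0.4117). All tested genes called numbered 4423 with the replicate block, 6610 with Vehicle replicate 3 and KIRA6 replicate 1 both removed, and 1211 to 3392 with 1 library left out, against 2783. With both removed, the log2 fold change of Acadvl turned to −0.0016 and that of Hadhb to −0.15, and the cause was not tested. Leaving out 1 library moved the log2 difference of the Hadha/Hadhb ratio between −0.044 and 0.26 and that of Acadm/Acadl between −0.26 and 0.27. The labels tie same-numbered libraries by number only. Their deviations from the group means correlated by 0.762, −0.469 and 0.738 for replicates 1, 2 and 3. Between libraries of different numbers the correlation ran from −0.842 (KIRA6 replicate 1 with Vehicle replicate 3) to 0.713 (KIRA6 replicate 1 with Vehicle replicate 2). Whether the replicates were paired was not tested. Slc25a20 had 132 to 440 estimated fragments in a library, the fewest of the detected members in every library of both groups, so depth limits it most.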
